A study of Mus musculus with 10 samples.

Results

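The genes described here are 32 regulators of the actin cytoskeleton and of dendritic spines, given as a list of gene symbols that share this function. All 32 were found among the 32531 gene rows of each count file, and all 32 passed the filter on low counts, out of 14680 genes that did. They comprise 3 small GTPases, 3 exchange factors, 6 kinases, 2 WAVE proteins, 7 subunits of the Arp2/3 complex, 2 actins with the severing protein cofilin, and 8 spine scaffolds and filament binders.

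TRAP-seq (translating ribosome affinity purification followed by sequencing) supplied the values. In it, the ribosomal protein L10a is tagged with EGFP in chosen cells, the tagged ribosomes are captured with an antibody, and the RNA on them is sequenced. All mice were adults of the Drd1-TRAP CP73 line, in which regulatory sequence of Drd1 drives the tag, on a background of FVB/N-Swiss Webster crossed to C57BL/6 for at least 9 generations, and the whole striatum was used. Drd1 encodes the dopamine D1 receptor, which marks the direct-pathway medium spiny neurons. There were 3 pull-down libraries from mice that self-administered saline, 3 from mice that self-administered cocaine intravenously in short-access sessions, 3 from yoked controls, and 1 input library of total striatal RNA from the same line. What the yoked mice received, the age in weeks, the length of the study and whether each library came from its own animal are not given in the labels, so the p-values reflect only how far these libraries scatter, and part of that scatter may be technical.

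Spines are the small protrusions of the dendrite on which most excitatory synapses of a medium spiny neuron sit, and their shape is held by branched and linear actin filaments. Exchange factors such as kalirin and Tiam1 load the GTPase Rac1 with GTP. Rac1 and the GTPase Cdc42 act through PAK kinases. Rac1 also acts through WAVE proteins, which switch on the Arp2/3 complex that nucleates branches, while RhoA acts through the ROCK kinases. PAK and ROCK meet on the LIM kinases, which phosphorylate cofilin and so stop it from severing filaments. Changes in spine density and in this pathway have been described in the striatum after repeated cocaine in rodents.

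The pull-downs held 12528806 to 45242175 gene counts and the input 40519976. The cell types in the pull-downs were described with marker lists. These were chosen with earlier results of these data known, so they are not an independent check of D1 identity. All 6 D1 markers (Drd1, Tac1, Pdyn, Eya1, Sfxn1 and Isl1) were above the input in each of the 9 pull-downs, with a median ratio of 2.35, and all 6 D2 markers were below it in each, with a median of 0.154. The 6 astrocyte, 6 oligodendrocyte and 6 microglial markers lay below the input in each pull-down as well, but none of these lists was at 0, and only C1qa among them had a count of 0 in any library. Of the other lists, 5 of 5 oligodendrocyte precursor, 5 of 6 endothelial and mural and 4 of 6 interneuron markers lay below the input in each pull-down. Among the interneuron markers, Chat reached a ratio of 1.77 in saline 2 and Nos1 1.20 in yoked 2. Markers of cortical glutamatergic neurons were not depleted, with a median ratio of 2.20 and a summed level of 21.6 to 120 CPM against 32.7 in the input. Each group was run on a lane of its own (saline on lane 3, cocaine on lane 1, yoked on lane 2, the input on lane 5), and effects of lane and of group therefore cannot be told apart.

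The first question the design poses is whether these transcripts differ with cocaine self-administration. No difference beyond the spread between libraries was detected. Of the 32 genes, 0 were called between cocaine and saline (0% of the 14680 genes tested), 0 between cocaine and yoked (0%) and 0 between yoked and saline (0%), at a Benjamini-Hochberg adjusted p under 0.05 over all genes in edgeR (quasi-likelihood F test). At an unadjusted p under 0.05 there were also 0 of the 32 in each comparison, where 2.84%, 2.58% and 1.84% of all genes lay. That count was 1 or 2 in some alternatives. Without yoked 3 these were Arpc5 and Cfl1 between cocaine and saline, and Add1 and Cttn between cocaine and yoked. Further cases between cocaine and yoked were Cfl1 without yoked 1 and Actr2 without yoked 2. Actn1 was another, without cocaine 3 and with the replicate number as a block. None of these genes passed after adjustment in those fits. The shares of all genes above belong to the main fit. They were not counted for the alternatives, so these counts of 1 or 2 have no background beside them. DESeq2 and limma-voom likewise called 0 of the 32 in each.

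Through 95% intervals, the data also bound the difference between these groups of libraries, gene by gene. The intervals reflect only the scatter of these libraries. As each group had a lane of its own, they do not bound an effect of treatment alone. The 95% interval of the fold change lay within 2-fold in either direction for all 32 genes in all 3 comparisons. It lay within 1.5-fold for 28 of 32 genes between cocaine and saline, for 27 between cocaine and yoked and for 28 between yoked and saline. These intervals are per gene and are not adjusted for the number of genes. The median log2 fold change of the 32 genes was 0.0063 for cocaine against saline, -0.024 for cocaine against yoked and 0.018 for yoked against saline, and that of all genes was 0.0036, -0.026 and 0.026. Values were higher in cocaine than in saline for 16 genes and lower for 16. They were higher in cocaine than in yoked for 15, and higher in yoked than in saline for 19. Apart from direction, the typical size of the fold change was 0.096, 0.096 and 0.092 on the log2 scale (median of absolute values). Over all genes tested it was 0.157, 0.166 and 0.156. All genes include those of lower level, which scatter more. The median spread within groups was 0.25 over all genes and 0.21 over the 9205 at or above the level of the lowest of the 32. Fold changes were not compared at matched level, so the smaller size is not taken as particular to the 32 genes.

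**Figure D1:**
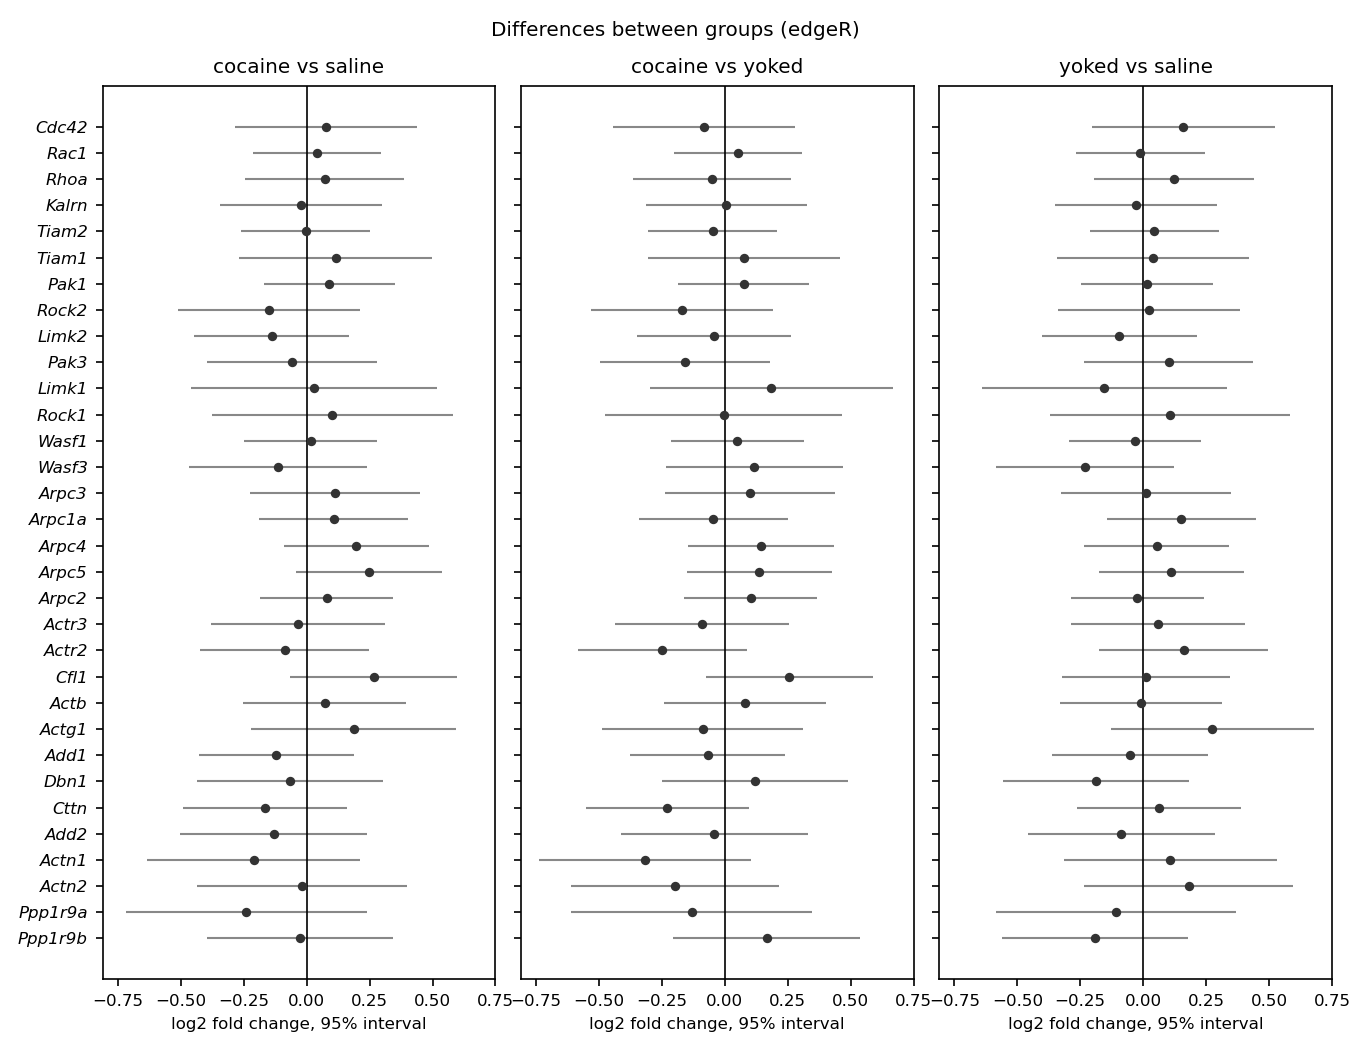
Log2 fold change (point) and 95% interval (line) from edgeR for each of the 32 genes, in 1 panel for each of the 3 comparisons of groups, with genes ordered by role. Every interval spans 0, and none reaches a 2-fold difference, which is 1 on this scale.

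The levels below are normalised CPM, that is counts scaled to 1e+06 gene counts per library, with TMM scaling over the 9 pull-downs. They compare a gene between libraries, and gene lengths are not accounted for, so they do not rank genes against each other. Positions in parentheses are the first and last base of the gene in RefSeq (GRCm38.p6). In bulk libraries such as these, fewer cells of a type and less RNA per cell cannot be told apart.

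Small GTPases are the switches of the pathway. Rac1 (chromosome 5, 143505481 to 143528031), which drives spine enlargement and the branching of filaments, stood at 706, 743 and 723 in saline, 806, 745 and 682 in cocaine and 744, 691 and 719 in yoked libraries 1, 2 and 3. The 3 groups overlapped. The spread of Rac1 within groups was 0.079 on the log2 scale and only 1.88% had a smaller one among the 9205 tested genes at or above the level of the lowest of the 32. Its 95% interval for cocaine against saline ran from -0.22 to 0.30 (log2). Cdc42 (chromosome 4, 137319696 to 137357759), the GTPase of filopodia and of local spine growth, was at 390.3, 446 and 362 in saline, 428, 425 and 411 in cocaine and 399.6, 356 and 583 in yoked libraries 1, 2 and 3, and yoked 3 alone lay above 446. Rhoa (chromosome 9, 108306160 to 108337943), whose product acts through ROCK to contract the actomyosin network, was at 58.4, 63.5 and 61.7 in saline, 60.3, 69.0 and 63.5 in cocaine and 57.4, 61.6 and 80.9 in yoked libraries 1, 2 and 3, and yoked 3 was again the highest.

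Among the exchange factors, Kalrn (chromosome 16, 33969073 to 34573277) encodes kalirin, the Rac exchange factor best known for maintaining spines, including in rodent striatum after cocaine. It was at 485, 455 and 648 in saline, 478, 497 and 588 in cocaine and 514, 532 and 511 in yoked libraries 1, 2 and 3, with saline 3 highest and saline 2 lowest, so that the whole range fell inside the saline group. The log2 fold change was -0.023 ± 0.15 (SE) for cocaine against saline, with a 95% interval of -0.34 to 0.30, and its sign turned in 3 of 9 fits that left out 1 library, to 0.15 without saline 3. Tiam2, a Rac exchange factor of neurons, varied least after Rac1, with values between 126 and 147. Tiam1, which couples NMDA receptors to Rac, ranged from 76.7 in yoked 3 to 122 in yoked 2, both in 1 group.

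The kinase genes gave no called difference either. Pak1 was between 394 and 481 normalised CPM over the 9 pull-downs, Pak3 between 123 and 188, and Rock2 between 545 and 848. Few counts stood behind the values of Rock1, at 9.39 to 15.9, and of Limk1, at 5.65 to 8.84, with 193 to 645 and 103 to 283 counts per pull-down. For Limk2, which like Limk1 phosphorylates cofilin, the cocaine libraries (46.7, 48.8 and 47.6) all lay below the saline libraries (53.9, 49.8 and 53.8), without passing (edgeR unadjusted p = 0.350). Yoked 3, at 40.1, was lower than any of them. Wasf1, the WAVE protein of neurons that relays Rac to Arp2/3, was at 401 to 479.

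The 5 genes with the smallest unadjusted p between cocaine and saline, none of which passed, were Arpc5, Cfl1, Arpc4, Cttn and Ppp1r9a. Arpc5 (chromosome 1, 152766542 to 152775580), a subunit of the Arp2/3 complex, was at 78.9, 95.1 and 92.5 in saline, 100.1, 119.9 and 96.2 in cocaine and 100.01, 96.6 and 91.1 in yoked libraries 1, 2 and 3. Each cocaine library was above each saline library, though cocaine 3 and saline 2 stood close together. The log2 fold change was 0.25 ± 0.13 (SE) (edgeR unadjusted p = 0.0865, Benjamini-Hochberg adjusted p = 0.999), and its 95% interval of -0.041 to 0.54 includes 0.

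Cfl1 (chromosome 19, 5490455 to 5494031) encodes cofilin-1, the protein that severs actin filaments. It was at 547, 505 and 413 in saline, 584, 637 and 541 in cocaine and 582, 482 and 413 in yoked libraries 1, 2 and 3. Saline 1 lay above cocaine 3, so the groups overlapped, and saline 3 and yoked 3 were the lowest libraries, at the same level. The log2 fold change was 0.27 ± 0.15 (SE) against saline (edgeR unadjusted p = 0.108) and 0.25 ± 0.15 (SE) against yoked (edgeR unadjusted p = 0.122), comparisons that share the 3 cocaine libraries. Arpc4, which helps to hold the Arp2/3 complex together, was at 146, 152 and 148 in saline, 150.05, 186 and 176 in cocaine and 152, 136 and 175 in yoked libraries 1, 2 and 3, with log2 fold changes of 0.20 ± 0.13 (SE) and 0.14 ± 0.13 (SE) in the same comparisons, and its groups overlapped.

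Cttn and Ppp1r9a had lower mean values in cocaine than in saline. Cortactin, the product of Cttn (chromosome 7, 144435724 to 144471560), stabilises Arp2/3 branches. It was at 26.9, 25.7 and 27.3 in saline, 24.4, 23.3 and 23.6 in cocaine and 28.2, 31.9 and 23.4 in yoked libraries 1, 2 and 3, and the cocaine libraries all lay below the saline libraries by a small margin, while yoked 3 was level with them. Its log2 fold change was -0.17 ± 0.15 (SE) against saline (edgeR unadjusted p = 0.294) and -0.23 ± 0.15 (SE) against yoked (edgeR unadjusted p = 0.151). Ppp1r9a (chromosome 6, 4902872 to 5165661), encoding neurabin-1, which anchors protein phosphatase 1 to actin, was at 1369, 841 and 1403 in saline, 1308, 705 and 1047 in cocaine and 1012, 1110.0 and 1231 in yoked libraries 1, 2 and 3. Saline 2 and cocaine 2 were the lowest libraries and the groups overlapped, with a log2 fold change of -0.24 ± 0.22 (SE) (edgeR unadjusted p = 0.299). Leaving out 1 library moved it between -0.46, without cocaine 1, and -0.031, without cocaine 2.

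The count of separated groups was near the background. Between cocaine and saline, 4 of the 32 genes had groups that did not overlap, namely Arpc5 higher and Cttn, Limk2 and Add1 lower, where 11.5% of all genes tested were separated. Between cocaine and yoked there were 0 (6.76% of all genes), and between yoked and saline 1, Actg1 (6.69%).

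Against the yoked control, the smallest unadjusted p after that of Cfl1 belonged to Actn1 and Actr2. Actn1 (chromosome 12, 80167542 to 80260420) encodes α-actinin-1, which crosslinks filaments. It was at 54.3, 41.5 and 65.1 in saline, 46.9, 34.6 and 57.9 in cocaine and 53.3, 58.7 and 61.6 in yoked libraries 1, 2 and 3, with cocaine 2 lowest of the 9, and its log2 fold change for cocaine against yoked was -0.32 ± 0.20 (SE) (edgeR unadjusted p = 0.128). Actr2 (chromosome 11, 20062304 to 20112951) encodes Arp2, a core of the nucleating complex. At 312, 296 and 285 in saline, 308, 271 and 261 in cocaine and 304, 274 and 419.7 in yoked libraries 1, 2 and 3, only yoked 3 lay above the cocaine and saline libraries. Its log2 fold change was -0.25 ± 0.16 (SE) (edgeR unadjusted p = 0.135), and -0.045 without yoked 3. Leaving out cocaine 2 moved that of Actn1 to -0.14, and leaving out cocaine 3 to -0.51.

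Between yoked and saline the smallest unadjusted p was that of Actg1 (chromosome 11, 120345687 to 120348495), which encodes γ-actin. It was at 7.41, 6.42 and 5.96 in saline, 7.68, 7.65 and 7.24 in cocaine and 8.33, 7.53 and 8.13 in yoked libraries 1, 2 and 3, every yoked library above every saline library, with a log2 fold change of 0.27 ± 0.19 (SE) (edgeR unadjusted p = 0.167). Only 83 to 352 uniquely placed reads stood behind each of these values, against 30132 to 118367 for Actb. Actg1 has many near-identical copies in the mouse genome, and alignments that were not unique were left out of the counts, so its level is uncertain. Wasf3 was at 112, 128 and 121 in saline, 114, 128 and 92.3 in cocaine and 111, 117 and 80.1 in yoked libraries 1, 2 and 3, with a log2 fold change of -0.23 ± 0.16 (SE) for yoked against saline (edgeR unadjusted p = 0.184). Its groups overlapped, with yoked 3 lowest, and without yoked 3 the log2 fold change was -0.080.

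The 5 of that comparison were completed by genes of spines and of branching, with unadjusted edgeR p of 0.284 for Ppp1r9b, 0.290 for Arpc1a and 0.296 for Dbn1. Ppp1r9b (chromosome 11, 94991212 to 95006898) encodes spinophilin, the phosphatase 1 anchor named for its abundance in spines. It was at 282, 253 and 247 in saline, 260.1, 256 and 251 in cocaine and 261, 265 and 158 in yoked libraries 1, 2 and 3. Yoked 3 was far below the other 8 libraries, which held between 247 and 282, and without it the log2 fold change of -0.19 ± 0.17 (SE) turned to 0.013. Dbn1, encoding drebrin, an actin-binding protein of mature spines, was at 87.7, 71.5 and 96.4 in saline, 80.9, 76.3 and 87.1 in cocaine and 84.3, 84.8 and 55.6 in yoked libraries 1, 2 and 3, with yoked 3 again lowest. Its log2 fold change of -0.19 ± 0.17 (SE) was -0.013 without yoked 3. Arpc1a was at 188, 173 and 172 in saline, 168, 179 and 226 in cocaine and 180.4, 204 and 206 in yoked libraries 1, 2 and 3, with overlapping groups.

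Actb (chromosome 5, 142903115 to 142907976), encoding β-actin, was at 2539, 2331 and 2464 in saline, 2647, 2691 and 2366 in cocaine and 2704, 2702 and 1888 in yoked libraries 1, 2 and 3. Yoked 3 was lowest, and the other 8 lay between 2331 and 2704. The group means were 2445 ± 105, 2568 ± 177 and 2431 ± 470.3 normalised CPM (SD, n = 3 each), and the 95% interval of the log2 fold change for cocaine against saline was -0.25 to 0.39.

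**Figure D2:**
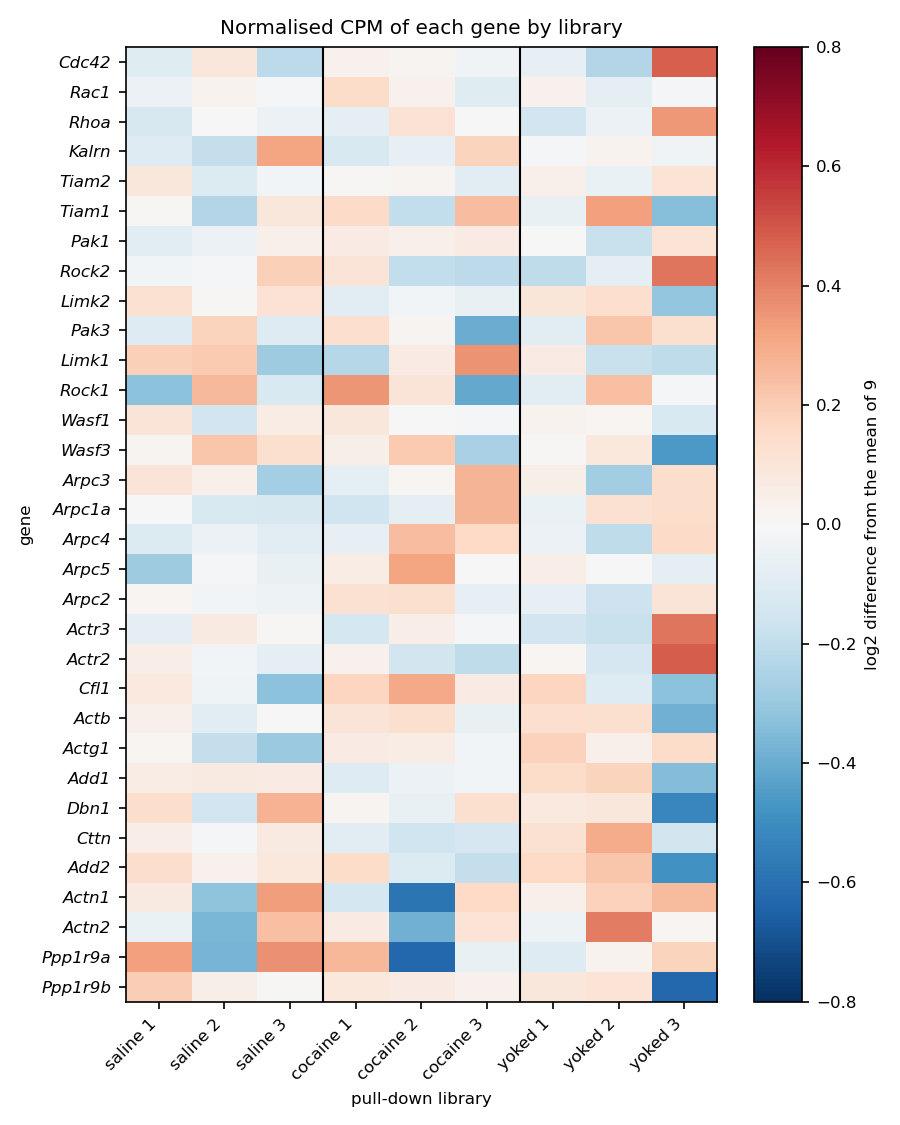
Colour gives the log2 difference of each gene's normalised CPM (rows, by role) from its mean over the 9 pull-downs (columns, 3 saline, 3 cocaine and 3 yoked libraries). Yoked 3 shows Cdc42, Actr2, Actr3 and Rock2 high and Ppp1r9b, Dbn1, Add2 and Wasf3 low, and cocaine 2 shows Ppp1r9a and Actn1 low.

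Single libraries stood at the extremes of many of the 32 genes. Yoked 3 held the highest or the lowest value of the 9 pull-downs for 15 of the 32 genes. Over all 14680 genes tested it did so for 50.4%, a share close to that of the 32 genes. Higher in yoked 3 than in each of the other 8 libraries were Cdc42, Rhoa, Tiam2, Pak1, Rock2, Actr2 and Actr3, and lower were Tiam1, Limk2, Wasf3, Actb, Dbn1, Ppp1r9b, Add1 and Add2. Relative to the mean of the other 8 (on the log2 scale), Actr2 was 1.45-fold, Cdc42 1.45-fold, Rock2 1.399-fold and Actr3 1.397-fold. Ppp1r9b was at 0.612 of that mean, Dbn1 at 0.669, and Add2, which encodes β-adducin, at 0.684.

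Both actin-related proteins of Arp2/3 were thus high in yoked 3, and the other 5 subunits lay between 0.941 (Arpc5) and 1.13 (Arpc4) times the mean of the other 8. The summed D1 markers were highest in this library, at 3212 CPM against 2166 to 2813 in the other 8. Summed microglial markers were lowest, at 3.603 CPM against 4.49 to 23.2. Oligodendrocyte markers were also lowest, at 183 against 224 to 940. Oligodendrocyte precursor and interneuron markers were lowest too, at 4.49 and 23.7 CPM. Other lists were not lowest in yoked 3. Its astrocyte sum was 154 against 141 in cocaine 3, and its D2 sum 205 against 147 in saline 3. Its endothelial and mural sum was 3.38 against 1.99 in cocaine 3. Markers of cortical glutamatergic neurons were highest in yoked 3, at 119.9 CPM against 21.6 to 107. The part of these in the actin values was not tested.

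Yoked 2 was the other library with many extreme values, 13 of the 32 genes against 25.3% of all genes. Tiam1, Pak3, Limk2, Cttn, Actn2, Add1 and Add2 were highest there, and Cdc42, Pak1, Actr3, Arpc2, Arpc3 and Arpc4 lowest. Its summed astrocyte markers were the highest of the 9, at 811 CPM against 141 to 459, and so were its oligodendrocyte markers, at 939.9, and its D2 markers, at 493 against 147 to 353. Cortical glutamatergic markers were lowest there, at 21.6 CPM. The part of these was not tested either. Yoked 2 and yoked 3 lay at opposite ends for Cdc42, Tiam1, Pak1, Limk2, Actr3, Add1 and Add2, although both belong to 1 group. The other libraries held fewer extremes of the 32 genes, with 3, 4 and 7 in saline 1, 2 and 3 (10.7%, 18.6% and 24.9% of all genes), 3, 8 and 8 in cocaine 1, 2 and 3 (10.5%, 26.2% and 24.4%) and 3 in yoked 1 (8.9%).

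**Figure D3:**
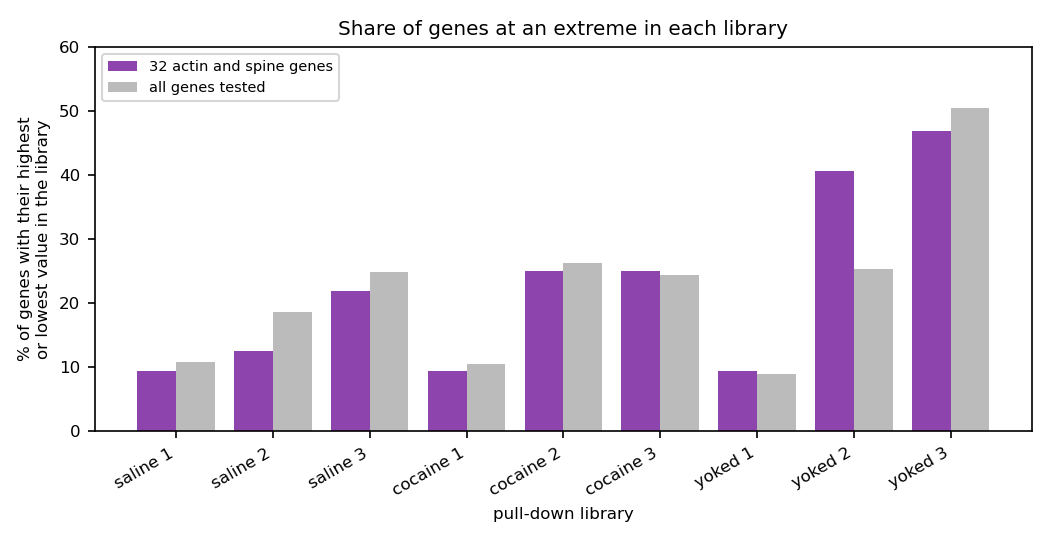
Percent of genes whose highest or lowest normalised CPM over the 9 pull-downs falls in each library, for the 32 actin and spine genes (purple) and for all 14680 genes tested (grey). Yoked 3 leads for both, at 46.9% and 50.4%, and yoked 2 follows for the 32 genes at 40.6% against 25.3%.

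The spread of the 32 genes was close to that of other genes of their level. The median spread within groups was 0.20 on the log2 scale, against 0.21 over the 9205 genes at or above the level of the lowest of them and 0.25 over all genes tested. The spread was widest for Ppp1r9a, at 0.36, followed by Actn1 at 0.29, Rock1 at 0.29 and Actn2 at 0.27. Ppp1r9a, Actn1 and Actn2 shared a dip in cocaine 2 and saline 2. Actn2, encoding α-actinin-2, which binds NMDA receptors at the spine, was at 36.5, 29.4 and 44.8 in saline, 39.7, 29.0 and 40.9 in cocaine and 36.9, 50.4 and 38.4 in yoked libraries 1, 2 and 3.

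The second question is which of these transcripts are higher in the pull-downs than in total striatal RNA. The pull-downs and the input differ both in cells and in kind of RNA, ribosome-bound against total, and the ratio cannot tell these apart. A ratio near 2 is also not particular to D1 markers. Their median was 2.35, and that of the cortical glutamatergic markers was 2.20, though 0 of those 5 were above the input in each pull-down. With 1 input library no test was possible, and the ratios, of CPM plus 0.5, have no error on the input side beyond counting. Of the 32 genes, 7 were at least 1.5-fold above the input in each of the 9 pull-downs, namely Cdc42, Kalrn, Tiam2, Arpc1a, Arpc3, Arpc4 and Arpc5, a share of 21.9% against 9.38% of 14132 genes. Only Rock1 was at least 1.5-fold below it in each, against 14.5% of those genes. A further count without a fold limit gave 16 genes above the input in each pull-down (29.1% of all genes) and 4 below it (32.9%). At a 2-fold limit only 1 of the 32 genes, Arpc3, was above the input in each pull-down, against 3.38% of all genes. The larger share of the 32 genes at 1.5-fold was thus not seen at 2-fold. The median ratio of the 32 genes was 1.28, and that of all genes 0.977.

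These ratios depend on how pull-downs and input are put on 1 scale. With TMM scaling over all 10 libraries the median log2 ratio of all genes moved from -0.034 to 0.15, and that of the 32 genes from 0.35 to 0.55. The count of genes at least 1.5-fold above the input then rose to 12, where 14.7% of all genes lay, adding Pak1, Wasf1, Arpc2, Actg1 and Cfl1. The mean ratios of Actr2 and Wasf3, close to 1, turned from below to above the input, and none of the other 30 turned.

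**Figure D4:**
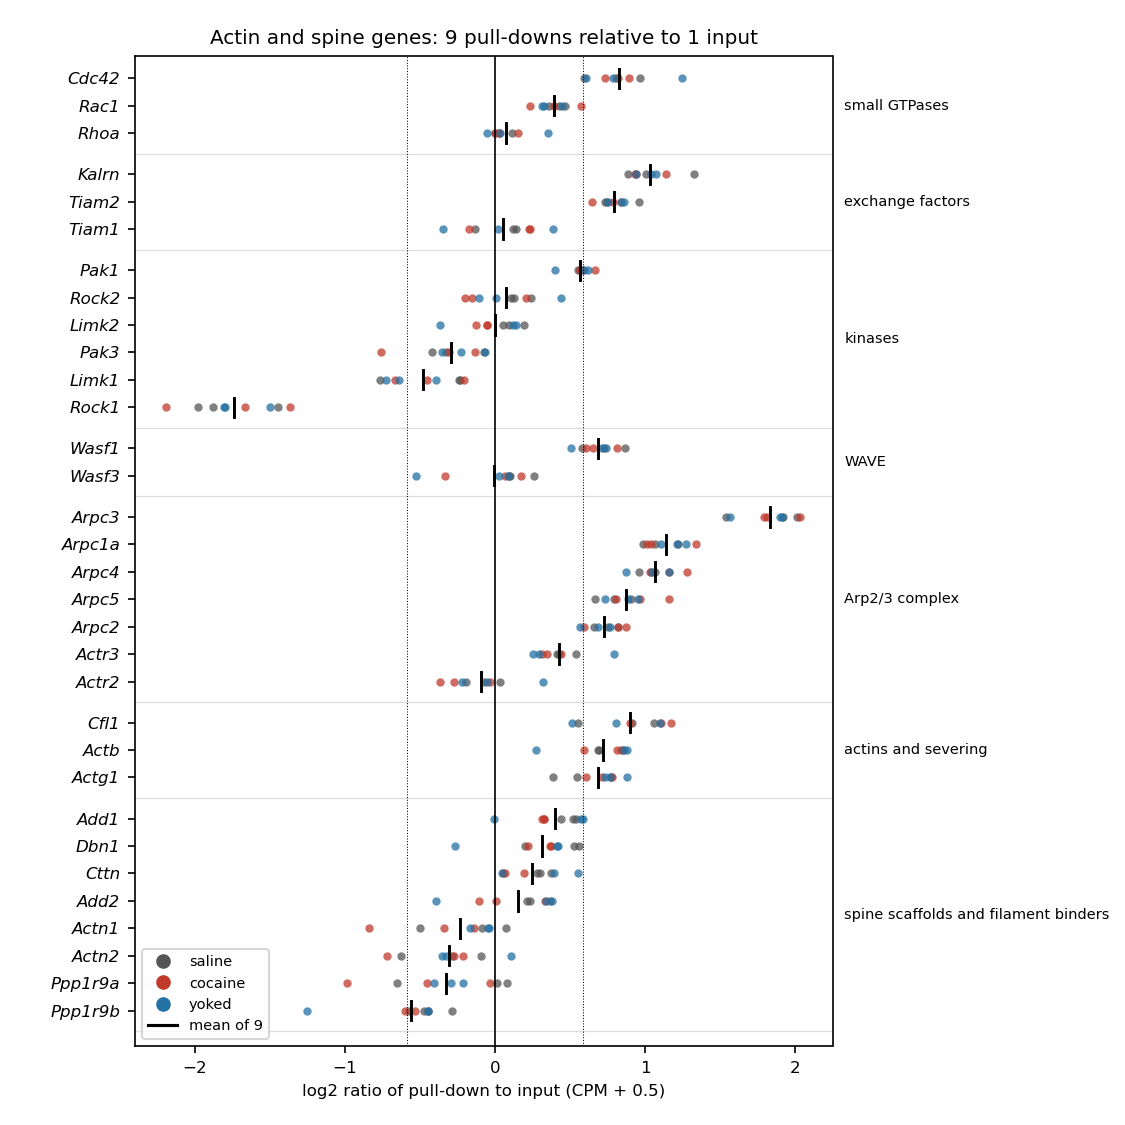
Log2 ratio of each pull-down to the input library for the 32 genes grouped by role, with 1 point per pull-down coloured by group, a bar at the mean of 9 and dotted lines at 1.5-fold. Arpc3 lies to the right of every other gene and Rock1 to the left, and the points of the 3 groups intermingle.

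By role, the highest median ratio was that of the Arp2/3 complex, 1.83 over 7 subunits. Arpc3 (chromosome 5, 122391878 to 122406181), the smallest ratio of which was 2.91, had ratios of 4.04, 3.78 and 2.91 in saline, 3.47, 3.52 and 4.10 in cocaine and 3.74, 2.97 and 3.76 in yoked libraries 1, 2 and 3, a mean of 3.56-fold. In the input it stood at 19.1 CPM, with a 95% Poisson interval of 17.8 to 20.5 that covers counting error only. Arpc1a followed at 2.20 (1.98 to 2.53 over the 9 pull-downs), Arpc4 at 2.10 (1.83 to 2.43), Arpc5 at 1.83 (1.59 to 2.23) and Arpc2, which touches the mother filament, at 1.65 (1.48 to 1.84). The actin-related proteins themselves were lower, with Actr3 at 1.34 (1.19 to 1.73) and Actr2 at 0.936 (0.776 to 1.25), so that RNAs of 1 complex ranged from 0.936 to 3.56 in their ratio to the input.

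Actins and cofilin were above the input in all 9 pull-downs. Cfl1 had a mean ratio of 1.87 (1.43 to 2.251), Actb of 1.65 (1.21 to 1.84) and Actg1 of 1.61 (1.31 to 1.84), the last under the limit on its counts given above. The transcription factor SRF, which responds to the pool of free actin, binds a CArG box in the promoters of several actin genes. Promoters of 28 of the 32 genes, all but Actb, Rac1, Rock1 and Cttn, were matched in RefSeq (GRCm38.p6), and a CArG box was searched on both strands in the 250 bases before the start. Actb was therefore not searched. The box was present in 2 of the 28 genes (2 of 39 promoters, 5.13%, against 1.47% of 32851 promoters of all genes), Actg1 and Arpc4. The 2 boxes, in capitals, are shown within 100 bases of promoter, for Arpc4 on the plus strand of chr6:113377863-113377962 and for Actg1 on the minus strand of chr11:120348531-120348630. A match is a description of these letters, not a bound site.
Arpc4: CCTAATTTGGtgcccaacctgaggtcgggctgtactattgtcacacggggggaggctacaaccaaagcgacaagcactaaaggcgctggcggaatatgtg
Actg1: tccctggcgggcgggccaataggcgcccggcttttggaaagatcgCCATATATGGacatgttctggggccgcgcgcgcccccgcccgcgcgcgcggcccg

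Relatives of 1 family differed in their ratio in each pull-down for some pairs but not for all. Such a comparison within a library does not depend on the scaling between libraries, and the 13 pairs compared were chosen after the ratios had been seen. It does depend on the 1 input library, whose counts enter all 9 ratios of a gene. An error in them moves all 9 the same way, so 9 of 9 is not 9 independent results. The Rac exchange factors Kalrn, at 2.01, 1.85 and 2.503 in saline, 1.92, 1.91 and 2.20 in cocaine and 2.06, 2.10 and 1.92 in yoked libraries 1, 2 and 3, and Tiam2, at 1.74 on average (1.56 to 1.95), were above the input in each pull-down, whereas Tiam1 was at 1.04 (0.788 to 1.31). The ratio of Kalrn exceeded that of Tiam1 by 1.97-fold, and it did so in 9 of 9 pull-downs (1.61 to 2.44).

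Among the kinases, Rock1 had ratios of 0.254, 0.368 and 0.271 in saline, 0.388, 0.314 and 0.218 in cocaine and 0.287, 0.354 and 0.286 in yoked libraries 1, 2 and 3. Its relative Rock2 stood at 1.05 (0.870 to 1.36). The ratio of Rock2 was 3.51-fold that of Rock1, in 9 of 9 pull-downs (2.84 to 4.75). Pak1 was at 1.48 (1.32 to 1.59) and Pak3 at 0.814 (0.592 to 0.956), a 1.82-fold difference seen in each pull-down. Pak3 was below the input in each, but in only 5 of 9 with TMM scaling. Limk1 lay below the input in each, at 0.717 (0.588 to 0.867), but in only 8 of 9 with TMM scaling, and Limk2 lay on both sides of the input (0.777 to 1.14). Of the WAVE genes, Wasf1 was at 1.61 (1.42 to 1.83) and Wasf3 at 0.996 (0.694 to 1.20), 1.62-fold apart in 9 of 9 pull-downs.

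The ratios of the 3 GTPases kept 1 order in most pull-downs. Cdc42 had a mean ratio of 1.77 (1.51 to 2.37), Rac1 of 1.31 (1.17 to 1.49) and Rhoa of 1.05 (0.963 to 1.28). Cdc42 exceeded Rac1 in 9 of 9 pull-downs and Rac1 exceeded Rhoa in 8 of 9, the exception being yoked 3.

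Scaffolds of the spine lay close to the input. The 8 genes of this role had a median ratio of 0.973, with 1 of 8 above the input in each pull-down (Cttn, 1.19) and 1 of 8 below it in each, Ppp1r9b. Spinophilin RNA had ratios of 0.819, 0.721 and 0.671 in saline, 0.733, 0.692 and 0.661 in cocaine and 0.733, 0.735 and 0.419 in yoked libraries 1, 2 and 3, a mean of 0.677, with yoked 3 apart from the rest. Neurabin RNA, Ppp1r9a, was at 0.797 (0.505 to 1.06), Actn2 at 0.807 (0.607 to 1.08) and Actn1 at 0.852 (0.559 to 1.05). Add1, encoding α-adducin, which caps filaments and ties them to spectrin, was at 1.32 (0.993 to 1.504), Dbn1 at 1.24 (0.832 to 1.48) and Add2 at 1.11 (0.760 to 1.30). Relatives among them kept no single order over the 9 pull-downs. The ratio of Actn1 was 1.06-fold that of Actn2 (0.902 to 1.24, higher in 6 of 9), that of Ppp1r9a 1.18-fold that of Ppp1r9b (0.729 to 2.06, 7 of 9) and that of Add1 1.19-fold that of Add2 (0.997 to 1.34, 8 of 9).

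Ratios of the 32 genes tended to be lower for genes of longer genomic span. Across the 32 genes the Spearman rank correlation was -0.42 between span and mean log2 ratio, and across 12865 genes with a span it was -0.31. Genes are not independent replicates, and all points share the same libraries and the same input. Actg1, Cfl1 and Actb, with spans of 2.81, 3.58 and 4.86 kb, were above the input, and so were Arpc5 (9.04 kb), Arpc4 (12.3 kb) and Arpc3 (14.3 kb). Kalrn, the longest at 604 kb, and Tiam2, at 193 kb, departed from this order at ratios of 2.04 and 1.74, and so, on the other side, did Ppp1r9b, at 0.677 with 15.7 kb.

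**Figure D5:**
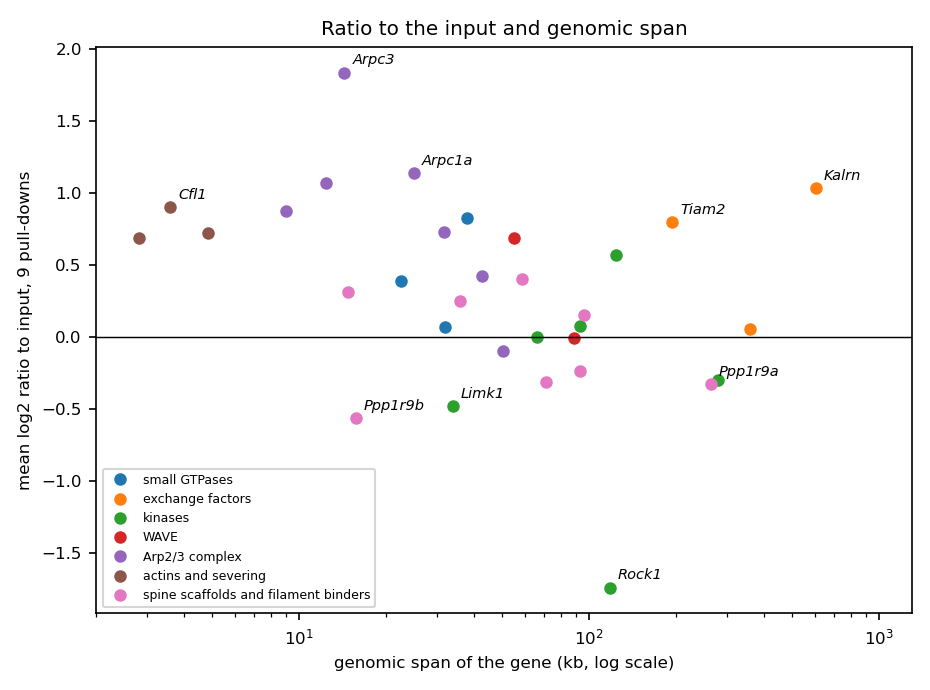
Mean log2 ratio to the input over 9 pull-downs (vertical axis) against the genomic span of the gene in kb on a log scale (horizontal axis) for the 32 genes, coloured by role. Short actin and Arp2/3 genes lie above 0, while Kalrn and Tiam2 lie above 0 in spite of long spans and Rock1 lies lowest.

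Of 102 other genes of the pathway, all 102 were tested and 0 were called in any of the 3 comparisons (edgeR, Benjamini-Hochberg adjusted p under 0.05), with 4, 4 and 2 at an unadjusted p under 0.05 (2.84%, 2.58% and 1.84% of all genes). Between cocaine and saline, genes among the 3 with the smallest unadjusted p, given as not passing, were the Cdc42-binding kinase gene Cdc42bpa with a log2 fold change of -0.29 ± 0.13 (SE) and the Rac exchange factor gene Dock4 with -0.28 ± 0.13 (SE). Between cocaine and yoked the 3 were Coro1a, a coronin that acts on Arp2/3, with 0.53 ± 0.19 (SE), the Ena/VASP gene Evl with 0.35 ± 0.14 (SE) and Cyfip1, a subunit of the WAVE complex, with -0.36 ± 0.15 (SE). Cyfip1 was also first between yoked and saline, with 0.42 ± 0.15 (SE), in a comparison that shares the yoked libraries. It was followed by the gelsolin gene Gsn with 0.76 ± 0.31 (SE), or 0.27 without yoked 2, and by Dock4 with -0.25 ± 0.13 (SE). Values of the 102 genes were lower in cocaine than in saline for 63, with a median log2 fold change of -0.063 against 0.0036 for all genes. They were lower in cocaine than in yoked for 63 (median -0.057 against -0.026), and lower in yoked than in saline for 53 (-0.013 against 0.026). The share of all genes that were lower was not counted. As each group had its own lane, effects of lane and of group cannot be told apart here either.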

How the data were processed

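The deposited values were whole-number read counts per gene symbol, 1 file per library. The submitters' processing notes name STAR 2.0.0e, HTSeq and the build mm10. Annotation, strand setting and counting mode: not given in the sources used here, so reads of genes overlapping on opposite strands cannot be told apart. Library sizes and tests exclude the 6 rows that name no gene. Of the unique alignments, 12.3% to 16.1% per pull-down and 27.6% for the input fell in no feature, and 2.54% to 3.03% and 6.63% were ambiguous.

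Groups were tested with edgeR 4.0.16 (R 4.3.3; quasi-likelihood F test, robust, TMM, filterByExpr) on all 9 pull-downs with group as the only term, and p-values were adjusted over 14680 genes. Standard errors are the log2 fold change over the root of F, and 95% intervals use the test's degrees of freedom. Ratios to the input used log2(CPM + 0.5), and their background was 14132 genes whose count reached 10 in the input and, as a mean, in the pull-downs. A floor of 3 counts is 0.0663 to 0.239 CPM in the pull-downs and covers counting error only. Pairs of replicates differed by a chi-square of 14.4 to 157 per degree of freedom, so none was a duplicate. Promoters and spans were taken from RefSeq (GRCm38.p6), the same assembly as mm10. The fits that compare groups were tested on simulated data. No such check is given for the ratios to the input, the spread, the extremes, the promoter search or the relation to span. Alternatives were DESeq2 1.42.0, limma-voom (limma 3.58.1), other scalings and filters, a replicate block and leaving out each library. As 0 genes are called, each comparison names the 5 of smallest unadjusted p, and the 5 highest and 5 lowest ratios to the input; 7 others are given in every library (Rac1, Cdc42, Rhoa, Cfl1, Kalrn, Ppp1r9b and Actb). A gene of the other pathway genes that the rule names is not reported here. The genes and lists were chosen with earlier results of these data known.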

Additional observations from a re-analysis of the deposited data

Results flagged for a closer look

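In the ratios to the input, where the 9 pull-downs were taken as 1 set, 5 of the 32 genes had 1 library far from the other 8, its gap to the nearest, as a share of the whole range, being above Dixon's 95% critical value. Chance flags about 1 in 20 genes where libraries differ only at random, but over all 14132 genes of this comparison 12.7% were flagged, and 9.14% with yoked 3 as the library apart, so the count is near that background. Yoked 3 was the low library for Ppp1r9b, with a log2 ratio of -1.25, for Dbn1 with -0.26, for Actb with 0.27 and for Add1 with -0.0097. Yoked 2 was the low library for Pak1, with 0.40.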

How the results depend on the processing

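The count of the 32 genes called was 0 in each comparison under each alternative that was run. Counts over all genes were 0 or 1. Between cocaine and saline 1 gene, AK155692, was called by DESeq2, by a fit of only the 6 libraries compared and without yoked 3, and between yoked and saline it was called without yoked 3. With the replicate block 1 gene, Gh, was called in each of the 3 comparisons, and of the 32 genes Actn1 between cocaine and yoked had an unadjusted edgeR p of 0.0422 (adjusted p = 0.971). Deviations from the group means over 14680 genes correlated between same-numbered libraries by -0.017 to 0.053 for number 1, 0.13 to 0.23 for number 2 and 0.23 to 0.25 for number 3, and between differently numbered ones by -0.25 to 0.15. Of the same-numbered pairs 6 of 9 passed 0.1, against 1 of 18 differently numbered ones. None of the 3 pairs of number 1 passed, and the numbers were not taken to pair the libraries. However, 7 of 9 libraries correlated best with their own number, a hint from the data and not the design. The main fit leaves out any such shared structure, and only the replicate block takes it in. Leaving out single libraries, the counts over all genes were 0 to 1, 0 to 0 and 0 to 1 for the comparisons cocaine-saline, cocaine-yoked and yoked-saline, and the median log2 fold change of the 32 genes ran from -0.018 to 0.031, from -0.024 to 0.028 and from 0.0033 to 0.053. Among the 5 genes named in each comparison, the fold change of Ppp1r9b between yoked and saline turned, ranging from -0.32 without yoked 2 to 0.013 without yoked 3. Kalrn and the named genes of the wider pathway were added to this check after the data were seen, and of these Kalrn turned. Against the input, TMM scaling gave 12 genes above 1.5-fold (14.7% of all genes) and a median log2 ratio of 0.55. A 2-fold limit left 1 of the 32 genes above it, where 3.38% of all genes lay. Leaving out single libraries gave 7 to 8 genes. The causes were not tested, apart from the stricter limit.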

Other observations

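Among the 102 other genes of the pathway, 11 were at least 1.5-fold above the input in each pull-down (9.38% of all genes) and 12 at least 1.5-fold below it (14.5%). Examples were picked with the values in view, and the ranges are over the 9 pull-downs. Brk1, a subunit of the WAVE complex, was at 3.25 (2.76 to 4.22), and of the other Arp2/3 genes Arpc5l was at 2.90 (2.41 to 3.89) and Actr3b at 1.90 (1.74 to 2.14). Arpc1b, the alternative form of Arpc1a, was at 0.235 (0.141 to 0.358), below the input in each. Of the capping protein genes, Capzb was at 2.12 (1.91 to 2.37) and Capza2 at 1.97 (1.71 to 2.77), whereas Capza1 was at 0.576 (0.420 to 0.762). Coro1a, at 2.92 (1.83 to 3.81), and Chn1, encoding the Rac-inactivating protein α-chimaerin, at 1.90 (1.72 to 2.10), were also above.

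Below the input in each pull-down were the GTPase gene Rhog at 0.163 (0.0662 to 0.389), the exchange factor genes Farp1 at 0.205 (0.0928 to 0.374) and Dock1 at 0.306 (0.160 to 0.632), the myosin gene Myo6 at 0.256 (0.145 to 0.635), and Wasf2, another WAVE gene, at 0.363 (0.198 to 0.503). For 4 of these, namely Farp1, Dock1, Myo6 and Wasf2, yoked 3 was the lowest pull-down. For each of them and for Rhog, yoked 2 was the highest. Yoked 3 held the highest or the lowest normalised CPM for 50.4% of all genes. That share takes both ends together and another scale, so it is not a background for the lowest ratio. The summed astrocyte and oligodendrocyte markers, given above, were highest in yoked 2, and their part here was not tested.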
